A study of Mus musculus with 10 samples.

Results

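The surface genes described here are the CD antigens (cluster of differentiation, the molecules by which blood cells are typed with antibodies) and the integrins of 32Dcl3 cells, an IL-3 dependent mouse myeloblast line. They were chosen by symbol alone: every gene written Cd with a number and at most 1 further letter, or with a symbol starting in Itga or Itgb, measured by a probe set that the platform annotation gives to 1 gene. The rule found 95 genes, 69 with a Cd symbol and 26 with an Itg symbol, out of 12394 named genes on the array. They were measured by 153 of the 22690 probe sets, and where several probe sets measured a gene the one with the highest mean over all arrays was used, which applied to 33 genes. The rule takes in 4 genes that are named after integrins and are no subunits: Itgb1bp1, which binds the integrin cytoplasmic tail, Itgb3bp, which is a centromere protein, Itgb1bp2 and Itgbl1.

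The study asked how fast mRNAs decay in myeloblasts with ample or scarce IL-3. New transcription was blocked by actinomycin D (10 µg/ml) in cells deprived of the cytokine, and the chase ran in either high (1 ng/ml) or low IL-3 (10 pg/ml). RNA was hybridized to 10 arrays, 1 per condition in each of 2 experiments: 0 h, 2 h and 4 h in low IL-3, and 2 h and 4 h in high IL-3, so that n = 2 in every group and the 4 later groups share the 0 h arrays. One text of the labels places the 0 h samples before exposure to the drug and the titles place them after it. In the study's scheme the drug comes first, and time 0 is the start of culture with high or low IL-3. All samples are of 1 cell line kept in culture. The cells of experiment 1 are labelled 32D myeloblasts and those of experiment 2 32Dcl3 myeloblasts. The fit takes out the difference in level between the experiments. The p-values set the mean change against a spread. That spread comes from how far changes within an experiment differ between these 2 experiments, drawn toward that of other probe sets of similar signal. Values are intensities on a linear scale, all 10 arrays normalized together by the authors. With transcription blocked, a value above that of 0 h does not count molecules per cell. It can be a higher share of what the normalization sets equal. The study's methods attribute such values to measurement noise. Which of these holds for the rises given below was not tested. Array medians ran from 48.8 to 70.6 and were highest in the 0 h array of experiment 1, and Gapdh, the loading control of the study, changed by -0.05 to 0.03 on the log2 scale in the comparisons with 0 h (lowest adjusted p = 0.34, limma).

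Integrins are pairs of an alpha and a beta subunit that join the cell to the extracellular matrix or to other cells and pass signals both ways across the membrane. Tetraspanins such as CD81 and CD53 gather integrins and other receptors into patches of the membrane. The glycoprotein CD47 signals to phagocytes not to engulf the cell, CD55 and CD59 stop complement, and CD48 is the partner of CD244, a receptor of natural killer cells and of some myeloid cells. How much of these proteins a cell shows depends in part on how long their mRNAs last.

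Of the 95 surface genes, 34 (35.8%) had a mean 0 h intensity of at least 50, against 6887 of 12394 genes (55.6%) on the whole array. The mean was at least 100 for 29 and at least 1000 for 9 of them, and for 32 of the 34 both 0 h arrays reached 50. Just inside the limit were Cd80 (mean 55.8) and Itga4 (51.6), and just outside it were Cd300a (44.0) and Cd274 (38.6), the ligand of the PD-1 receptor.

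The brightest transcript was Cd47, with 0 h intensities of 5563 and 5364 in experiments 1 and 2. It was followed by the tetraspanin Cd53 (4380 and 5130), the progenitor sialomucin Cd164 (3575 and 3344) and Cd48 (3324 and 2939). Intensities of different probe sets are not comparable as amounts of mRNA, and the order is one of signal only. The integrin alpha subunit Itga2b, the megakaryocyte and progenitor marker CD41, stood at 1972 and 1823, the tetraspanin Cd82 at 1222 and 1739 and the laminin receptor subunit Itga6 at 1576 and 1261.

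Of 22 integrin subunits, 10 were expressed at 0 h and 12 were not. The 7 alpha subunits were Itga2b, Itga6, Itgav (the vitronectin receptor chain), Itga5 (the fibronectin receptor chain), Itgal (CD11a), Itgam (CD11b) and Itga4, and the 3 beta subunits were Itgb7, Itgb2 (the CD18 chain that pairs with Itgal and Itgam) and Itgb1. The usual partner of Itga2b, Itgb3, had a mean 0 h intensity of only 8.97, and Itgax (CD11c) one of 9.36. Among the 6 tetraspanins 5 were expressed, and Cd9 alone was not, at 2.33. Of the complement regulators and self ligands 3 of 7 were expressed, of the adhesion and progenitor glycoproteins 7 of 12, and of the myeloid, scavenger and endocytic receptors 4 of 17, namely Cd74, Cd68, Cd320 and Cd177.

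Of the lymphoid receptors and costimulators, 2 of 22 genes were at or above 50, Cd72 and Cd80. The T cell receptor chain Cd3e had a mean 0 h intensity of 1.10 and the coreceptor Cd4 one of 3.80. The stem cell antigen Cd34 was at 3.92, Cd24a at 5.10 and the monocyte coreceptor Cd14 at 7.61. In all, 36 of the 95 genes were below 10 at 0 h. No gene under 50 at 0 h passed the filter for testing (a mean of at least 50 over the 10 arrays), and of these 61 genes 5 reached 50 on any array, the highest value being 77.5 for Itgb4. The labelled cell type was checked against its markers. Of 5 granule proteins of promyelocytes on the array 4 were expressed, with Mpo at 3409 and 509, Prtn3 at 3178 and 1453 and Ctsg at 4455 and 3465 in the 2 experiments. None of 8 lymphoid markers reached 50, while 3 of 6 erythroid and megakaryocyte, 3 of 7 macrophage and 4 of 8 mast cell and basophil markers did, the brightest being Itga2b, Adgre1 (2889 and 3281) and Gata2 (2260 and 2118).

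**Figure D1:**
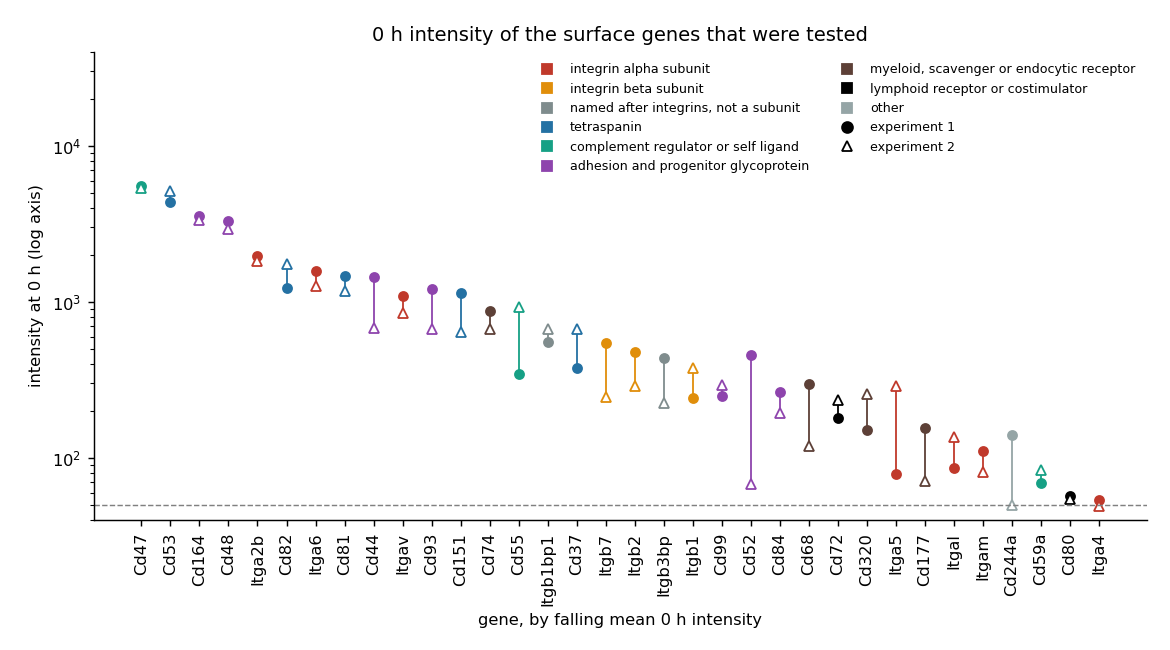
Intensity at 0 h (log axis) of the 34 surface genes that were tested, with experiment 1 as filled circles and experiment 2 as open triangles, joined by a line and coloured by the role of the gene; the dashed line is an intensity of 50. The spread between experiments is widest for Cd52 (458 and 68.2) and Itga5 (79.1 and 288), while Cd47, Cd164 and Itga2b nearly coincide.

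The 2 experiments differed in how much of some surface transcripts they held before the chase. Of the 34 genes 8 (23.5%) differed at least 2-fold between the 0 h arrays, against 820 of 6792 tested genes (12.1%). Cd52, a small GPI-anchored glycoprotein of leukocytes, was 6.72-fold brighter in experiment 1 (458 against 68.2), and it was brighter there in all 5 conditions, by 3.24-fold to 6.72-fold. Itga5 ran the other way, 3.64-fold brighter in experiment 2 at 0 h, and Cd55 was 2.70-fold brighter there (346 against 934). Cd244a (2.80-fold), the macrophage endosomal protein Cd68 (2.50-fold), the gut-homing subunit Itgb7 (2.24-fold), the neutrophil antigen Cd177 (2.18-fold) and the hyaluronan receptor Cd44 (2.11-fold) were brighter in experiment 1. For 26 of the 34 genes the same experiment was the brighter in all 5 conditions. The share of all genes was not counted. Arrays of an experiment deviated together over all tested probe sets (correlations of 0.762 to 0.887), so this order is not shown to be particular to the surface genes. The granule marker Mpo, at 3409 and 509, also differed between the cultures, and its bearing on these genes was not tested. With 1 culture per experiment these differences have no replicate, and every change given below was taken within an experiment.

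Changes during the chase were tested with limma on log2(intensity + 16) over 11856 probe sets with the experiment as a block, at a Benjamini-Hochberg adjusted p under 0.05 over all of them. Since adding 16 shrinks differences of dim genes, the log2 changes of those understate the change. A smaller share of the surface genes fell, and a larger share rose, than of all genes. At 4 h in low IL-3, 5 of the 34 fell and 17 rose, where 43.6% of the 6792 tested genes fell and 13.7% rose. At 4 h in high IL-3, 4 fell and 10 rose, against 40.6% and 9.11% of all genes. After 2 h of low IL-3, 3 fell and 4 rose, against 27.5% and 1.47%. After 2 h of high IL-3, 2 fell and 6 rose, against 27.6% and 3.05%. The median log2 change of the 34 was 0.12 at 2 h and 0.30 at 4 h in low IL-3, beside -0.09 and -0.21 for all genes, and 0.05 and 0.15 in high IL-3, beside -0.12 and -0.16.

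The zero of these changes depends on the scaling of the arrays. When every array was scaled to a common 75th percentile, the median of all genes at 4 h in low IL-3 moved from -0.21 to 0.21, 45.1% of genes rose and 28.4% fell, and 27 surface genes rose and 2 fell. With quantile normalization 37.1% of all genes rose and 31.2% fell there, and the median was 0.09. In each of these scalings the median of the 34 stayed above that of all genes, at 0.71 and 0.63. Leaving out 1 array changed the count of rises: without the low IL-3 array of experiment 2 at 4 h, 7 and not 17 genes rose, and without the 0 h array of experiment 2, 10 did. The share of all genes that rose went from 13.7% to 5.4% and 6.32% in these fits.

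**Figure D2:**
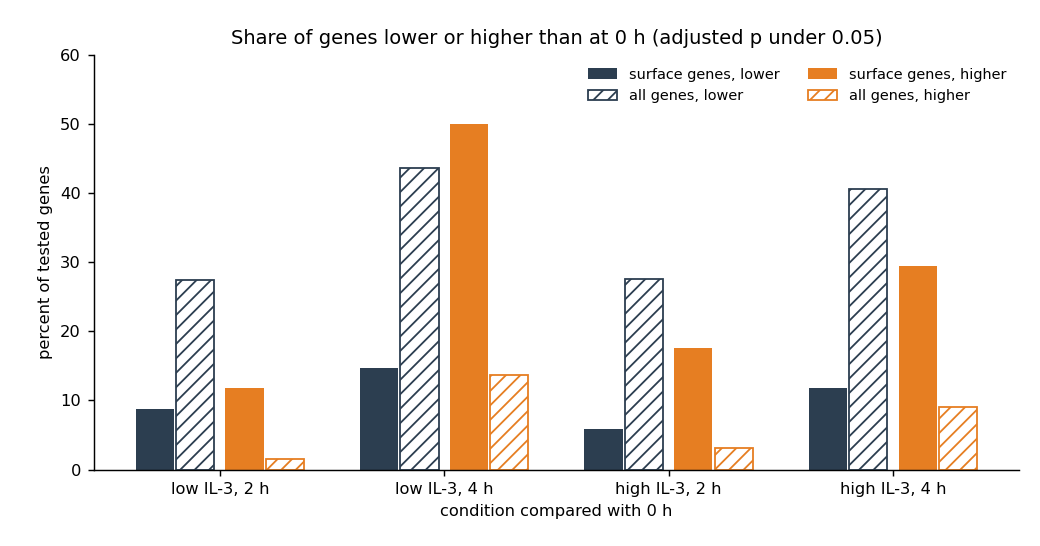
Percent of tested genes lower (dark) or higher (orange) than at 0 h at an adjusted p under 0.05, for the 34 surface genes (filled bars) and all 6792 tested genes (hatched bars) in each condition, under the authors' normalization. At 4 h in low IL-3, 14.7% of the surface genes were lower and 17 of the 34 higher, against 43.6% and 13.7% of all genes; scaled to a common 75th percentile the split of all genes turns to 28.4% lower and 45.1% higher.

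The counts were also set out by signal. Among genes with a mean intensity of 50 to 150, 2 of 7 surface genes rose at 4 h in low IL-3 and 2 fell, beside 188 rises and 687 falls among 1568 genes. Among genes with a mean intensity of 150 to 500, 9 of 11 surface genes rose at 4 h in low IL-3 and 0 fell, while 14.7% of 2295 genes in that range rose and 48.2% fell. Among those of 500 to 2000, 6 of 12 rose and 1 fell, against 310 rises and 969 falls among 2213 genes. Above 2000 there were 4 surface genes, of which 0 rose and 2 fell, Cd47 and Cd48, while 13.7% of 716 genes in that range rose and 27.8% fell.

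Itga5 was the fastest to decay of all the surface genes tested. In experiment 1 its intensity of 79.1 at the start became 18.0 and then 14.8 with low IL-3, after 2 h and 4 h, and 27.7 and then 20.5 with high IL-3. In experiment 2 an intensity of 288 became 48.9 and then 28.4 with low IL-3, and 67.0 and then 37.6 with high IL-3. Within each experiment every later array was below the 0 h array, and the low IL-3 arrays were the lower ones at each time. The signal left at 4 h was 14.3% ± 6.23 (SD, n = 2) of that of 0 h with low IL-3 and 19.5% ± 9.11 with high IL-3. On the log2 scale it fell by 2.20 (SE 0.25, adjusted p = 1.7e-06, limma) and by 1.94 (adjusted p = 8.0e-06). The half-life from the slope of the log ratio was 1.26 h ± 0.25 in low and 1.55 h ± 0.42 in high IL-3. The mean of this probe set over all arrays, 63.0, passed the filter of 50 only through its 0 h arrays. The test used the same 0 h arrays. Apart from the array at 67.0, every later array was under 50, the limit used for expression. The half-lives thus rest largely on values below that limit. The difference between high and low IL-3 over both times was 0.31 (SE 0.18, adjusted p = 0.71), positive in 4 of 4 pairs of arrays. A further probe set of Itga5, too dim to be tested, went from 34.6 to 36.8 (low IL-3) and 35.0 (high IL-3) within 4 h in experiment 1, and from 63.7 to 37.9 and 63.7 in experiment 2, so that the fall rests on 1 probe set of the gene.

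Cd48 fell in every condition, and its difference by IL-3 missed the threshold narrowly. In experiment 1 its intensity of 3324 at the start became 2788 and then 1813 with low IL-3, after 2 h and 4 h, and 2736 and then 2431 with high IL-3. In experiment 2 it went from 2939 to 2380 and 1694 with low IL-3, and to 2619 and 2211 with high IL-3. At 4 h the low IL-3 arrays lay below the high IL-3 arrays in both experiments, and at 2 h the groups overlapped. Of the 0 h signal, 56.1% ± 2.18 (SD, n = 2) was left after 4 h of low IL-3 and 74.2% ± 1.49 after 4 h of high IL-3, and the half-lives were 5.14 h ± 0.20 and 9.29 h ± 1.19. With arrays scaled to a common 75th percentile the half-life with low IL-3 was 20.5 h and 9.44 h in the 2 experiments, and with high IL-3 it was 160 h in experiment 2 and could not be given in experiment 1. The log2 change at 4 h was -0.83 (SE 0.07, adjusted p = 1.1e-07) in low and -0.43 (adjusted p = 0.00015) in high IL-3, the latter turning to 0.00092 with arrays scaled to a common 75th percentile. The difference between high and low IL-3 was 0.23 (SE 0.05, adjusted p = 0.063, limma), with the same sign in 3 of 4 pairs. It passed (adjusted p = 0.032) in a fit with the values of each gene averaged over its probe sets. Cd48 has 1 probe set, so its own values were the same there. Only the other rows, over which variances and p-values are adjusted, had changed.

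Cd244a, the receptor of CD48, showed the widest difference by IL-3 in this gene set, at low signal. In experiment 1 its intensity of 139 at the start became 107 and then 55.8 with low IL-3, after 2 h and 4 h, and 117 and then 103 with high IL-3. In experiment 2 it went from 49.8 to 35.5 and 34.4 with low IL-3, and to 66.9 and 54.8 with high IL-3. In both experiments and at both times the high IL-3 array was above the low IL-3 array. In low IL-3 it fell by 0.75 at 4 h (SE 0.21, adjusted p = 0.007), a call that was lost in 5 of 19 alternatives: without the 0 h array of experiment 1 (adjusted p = 0.10), without the low IL-3 array of experiment 1 at 4 h (0.12), without the block (0.42), under quantile normalization (0.063) and when scaled to a common 75th percentile (0.082). In high IL-3 the change was -0.14 (adjusted p = 0.61), and the difference between high and low IL-3 was 0.51 (SE 0.15, adjusted p = 0.19), positive in 4 of 4 pairs. A further probe set of Cd244a, too dim to be tested, went from 53.2 to 52.6 and then 39.6 with low IL-3, and to 54.9 and then 47.5 with high IL-3, in experiment 1. In experiment 2 it went from 24.8 to 50.4 and then 41.2 with low IL-3, and to 49.1 and then 43.0 with high IL-3, so that every later array there was above that of 0 h.

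Of the remaining integrin subunits, Itga6 alone was called lower. From 0 h intensities of 1576 and 1261 it came to 1121 and 1082 after 4 h of low IL-3, and to 1171 and 993 with high IL-3. It fell by 0.35 and 0.38 on the log2 scale (adjusted p = 0.0079 and 0.0055), and the sign turned to 0.09 and 0.04 with arrays scaled to a common 75th percentile. Another probe set of Itga6 went the opposite way at 4 h in low IL-3, by 0.36 (adjusted p = 0.026). Of the other alpha subunits, 4 were not called in either condition at 4 h. Itga2b changed by -0.0043 and -0.011 in low and high IL-3 at 4 h, Itgav by 0.11 and -0.02, Itgam by 0.30 and 0.33 and Itga4 by 0.22 and 0.13. A dimmer tested probe set of Itgav was called higher at 4 h in low IL-3, by 0.48 (adjusted p = 0.0497). In high IL-3 that probe set had 0.35 (adjusted p = 0.15). Itgal is given with its partner Itgb2.

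All 3 expressed beta subunits rose at 4 h in low IL-3, as did 13.7% of all genes. Itgb1, the common beta chain, went from 243 to 322 (low IL-3) and 314 (high IL-3) in experiment 1 and from 379 to 591 and 526 in experiment 2, with log2 changes of 0.50 (adjusted p = 0.0073) and 0.40 (adjusted p = 0.030). Itgb2 (478 and 290 at 0 h, 555 and 477 at 4 h in low IL-3) rose by 0.45 and Itgb7 by 0.44 in low IL-3 (adjusted p = 0.016 and 0.021), while their values in high IL-3, 0.16 and 0.32, did not pass. Itgal, the partner of Itgb2, rose by 0.66 in low IL-3 (adjusted p = 0.0060) and had 0.37 in high IL-3 (adjusted p = 0.11). A further tested probe set of Itgb1 rose by 0.61 in low and in high IL-3 (adjusted p = 0.010 and 0.012). Another had 0.24 and 0.26 and was not called (adjusted p = 0.30 and 0.28). The difference between high and low IL-3 did not pass for any subunit. By the probe sets used, Itga5 fell and Itgb1, the other chain of the fibronectin receptor, rose. The fall of Itga5 rests on 1 probe set that passed the filter only through its 0 h arrays. The call of Itgb1 in high IL-3 was lost in 5 of 20 alternatives. An opposite movement of the 2 chains is thus not established.

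**Figure D3:**
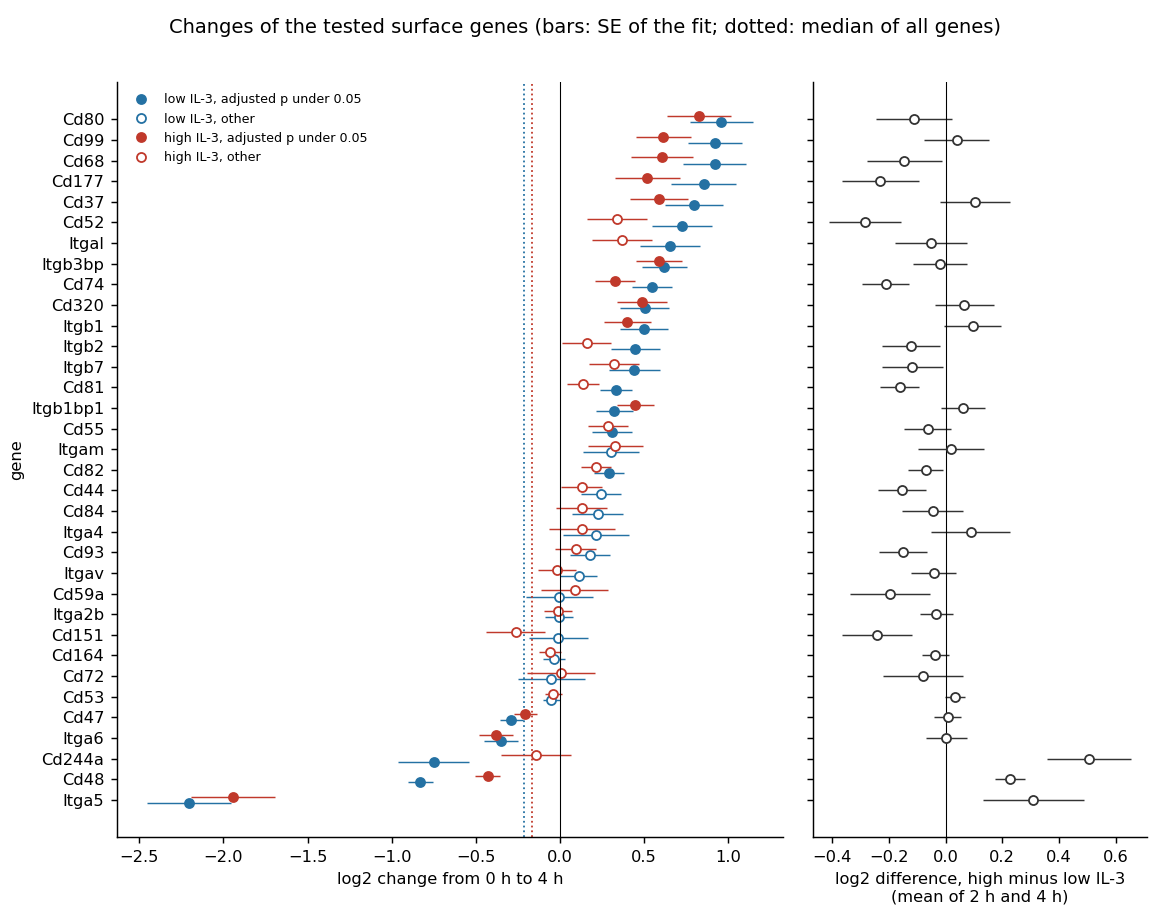
Left, log2 change from 0 h to 4 h of the 34 tested surface genes in low (blue) and high IL-3 (red), with SE of the fit, filled where the adjusted p is under 0.05, and dotted lines at the median of all genes (-0.21 and -0.16). Right, log2 difference of high minus low IL-3 over 2 h and 4 h, where no gene passed; Itga5, Cd48, Cd244a, Itga6 and Cd47 are the falls, of which Cd48 in high IL-3, Itga6 and Cd47 change sign with arrays scaled to a common 75th percentile.

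Among the tetraspanins 0 of 5 fell and 3 rose at 4 h in low IL-3, where 43.6% of all genes fell and 13.7% rose. Cd53 was the steadiest: 4380 and 5130 at 0 h became 4268 and 4904 in low and 4294 and 4959 in high IL-3 at 4 h, that is 96.5% ± 1.30 and 97.4% ± 0.97 of the start (SD, n = 2). Cd82, a metastasis suppressor, rose by 0.29 and Cd81, part of the B cell coreceptor, by 0.33 in low IL-3 (adjusted p = 0.011 and 0.0088), with 0.22 and 0.14 in high IL-3. For Cd82 a dimmer tested probe set was called higher at 4 h, by 0.63 in low and 0.66 in high IL-3 (adjusted p = 0.041 and 0.039, limma). Cd37 had 378 and 672 at 0 h and rose by 0.80 in low and 0.59 in high IL-3 at 4 h (adjusted p = 0.0011 and 0.011). A dimmer Cd37 probe set, with 127 and 74.4 at 0 h, went down by 0.65 in high IL-3 (adjusted p = 0.013) and had -0.44 in low IL-3 (adjusted p = 0.068). Cd151 did not pass, at -0.0082 and -0.26. Of the 10 surface genes with several tested probe sets, Itga6 at 4 h in low IL-3 and Cd37 at 4 h in high IL-3 were each the 1 gene called in opposite directions.

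Cd47, the brightest gene, fell by 0.29 in low and 0.20 in high IL-3 at 4 h (adjusted p = 0.0018 and 0.020), which is 0.07 and 0.04 below the median of all genes, and with arrays scaled to a common 75th percentile the values were 0.16 and 0.23. Its intensities at 4 h were 4497 and 4447 in low and 5229 and 4292 in high IL-3. Of its other 3 probe sets, 2 also fell in low IL-3, by 0.74 and 0.65 (adjusted p = 5.8e-05 and 0.038, the latter lower in 1 of 2 experiments), and 1 had -0.03. Cd55 rose by 0.31 in low IL-3 (adjusted p = 0.036), a call lost in 10 of 20 alternatives, with values down to 0.04 and adjusted p up to 0.85. Its second tested probe set had -0.23 (adjusted p = 0.16), and Cd59a did not change detectably (-0.0025 and 0.09).

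The 4 expressed myeloid and endocytic receptors all rose at 4 h with low and with high IL-3, where 13.7% and 9.11% of all genes rose. With high IL-3 the call of Cd177 was lost in 6 of 19 alternatives, that of Cd74 in 6 of 20 and that of Cd68 in 4 of 20. Cd68 had 298 and 120 at 0 h, 436 and 321 in low IL-3 and 433 and 204 in high IL-3, with log2 changes of 0.92 and 0.61 (adjusted p = 0.00061 and 0.014). Cd74, the invariant chain of MHC class II, went from 879 and 675 to 1137 and 1131 in low and 1076 and 875 in high IL-3, rising by 0.55 and 0.33 (adjusted p = 0.0011 and 0.035). Cd177 rose by 0.85 and 0.52, and Cd320, the receptor for vitamin B12 bound to transcobalamin, by 0.50 and 0.49. Of the macrophage markers, Adgre1 (-0.04 and -0.08) and Csf1r (0.18 and 0.26) were not called in either condition at 4 h.

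Among the adhesion and progenitor glycoproteins, Cd99 showed the steepest rise. In experiment 1 it went from 249 to 318 and then 450 with low IL-3, and to 514 and then 358 with high IL-3. In experiment 2 it went from 292 to 403 and then 613 with low IL-3, and to 434 and then 495 with high IL-3. Its log2 change at 4 h was 0.92 in low IL-3 (adjusted p = 0.00016) and 0.62 in high IL-3 (adjusted p = 0.0055), and its 2 further probe sets had 1.11 and 1.04 in low IL-3, both past the threshold. The 2 h array with high IL-3 in experiment 1 stood out: Cd99 was at 514 there and at 358 by 4 h, and Cd37 was at 877 and then 571. Cd52 rose by 0.73 in low IL-3 (adjusted p = 0.0030), from 458 and 68.2 to 562 and 173. Cd164 (-0.03 and -0.06), Cd44 (0.24 and 0.13), Cd93 (0.18 and 0.09) and Cd84 (0.22 and 0.13) were not called. A dimmer tested probe set of Cd44 was called higher at 4 h in low IL-3, by 0.68 (adjusted p = 0.010). In high IL-3 that probe set had 0.46 (adjusted p = 0.076).

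The lymphoid gene Cd80, a ligand of CD28, rose from 56.9 and 54.7 to 110 and 138 in low IL-3 and to 111 and 112 in high IL-3, changes of 0.96 and 0.83 (adjusted p = 0.00048 and 0.0020). Its further probe sets, too dim to be tested, had means of 11.7, 3.30 and 3.04 over all arrays, so the rise rests on the brightest probe set alone. Cd72 did not pass (-0.05 and 0.01). Both tested genes that are no surface molecules rose: Itgb3bp by 0.62 and 0.59, and Itgb1bp1 by 0.32 and 0.45. Leaving them aside, 15 surface genes rose with low and 8 with high IL-3 by 4 h.

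**Figure D4:**
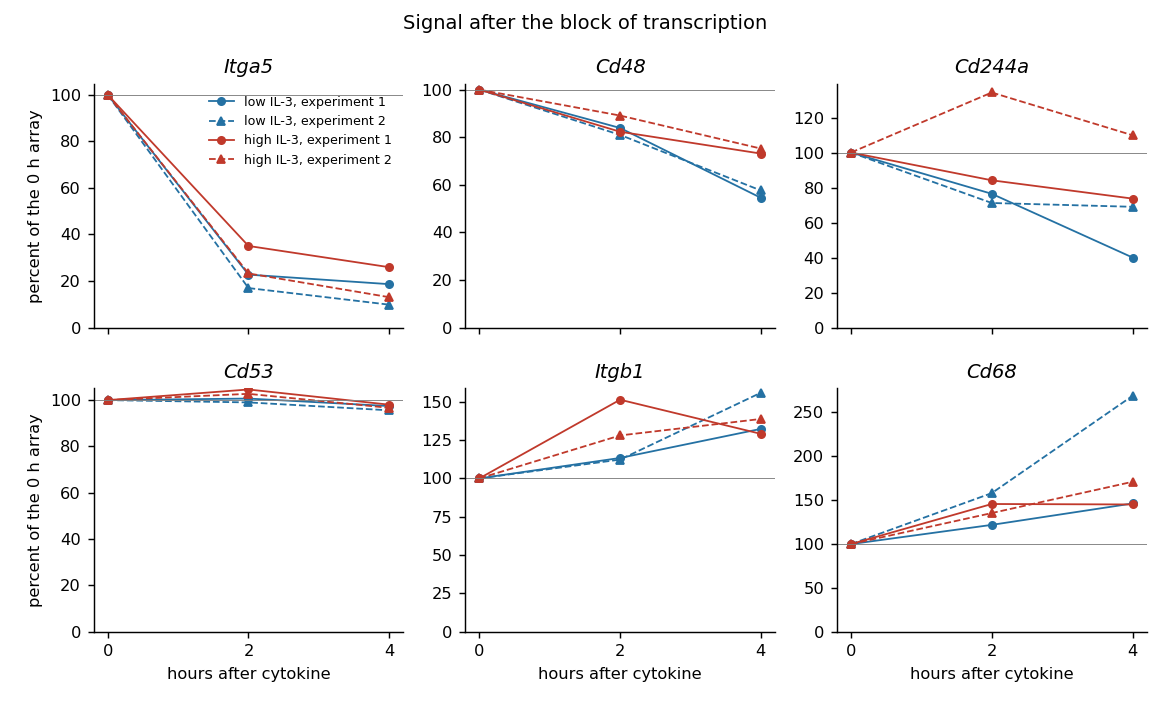
Intensity relative to that experiment's own 0 h array, in percent (y axis, from 0) against hours after the cytokine (x axis) for 6 surface genes, low IL-3 in blue and high IL-3 in red, experiment 1 as circles on solid lines and experiment 2 as triangles on dashed lines. Itga5 drops below 40% by 2 h on every line, Cd48 separates by IL-3 at 4 h, Cd53 stays near 100%, and Itgb1 and Cd68 run above 100%.

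Between high and low IL-3 no surface gene passed the test, on the mean of both times, in either direction. Of all genes 0.869% were higher in high IL-3 and 0.0147% lower. At an unadjusted p under 0.05 there were 5 of 34 surface genes (14.7%), beside 8.6% of all genes: Cd48 and Cd244a were higher in high IL-3, and Cd74 (-0.21, adjusted p = 0.45), Cd81 (-0.16, adjusted p = 0.51) and Cd52 (-0.28, adjusted p = 0.55) were lower. Those last 3 had the same sign in 4 of 4 pairs of arrays. The change of the IL-3 difference from 2 h to 4 h passed for 0 surface genes and for 0% of all genes; at an unadjusted p under 0.05 it was positive for Cd48 (0.35, adjusted p = 0.86) and negative for Cd99 (-0.69) and Cd37 (-0.63), both being genes that were high on the 2 h array named above. The study's own score is the area between the high and low IL-3 decay curves divided by the variability at that signal. Ratios to 0 h are capped at the 0 h level for high IL-3 and not for low IL-3. The score was recomputed here from the study's description, and the ranks are not its published ones. Cd244a ranked 297 and Cd48 331 among 22690 probe sets. They were the only 2 of the 95 genes in the first 1000, and Itga5 ranked 1540. Because of the cap, a gene above its 0 h level in low IL-3 gets a negative area there, whatever its high IL-3 value. Genes that rose could thus hardly rank high, and the count of 2 is no result about the surface genes.

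Surface molecules whose genes carry other symbols were counted in the same way. Of 64 such genes listed, 58 were on the array and 32 were tested; at 4 h in low IL-3, 14 fell and 5 rose, with a median of -0.16, and in high IL-3, 13 fell and 4 rose. Their share of falls lay near that of all genes. The falls included Tnfrsf1a, the main TNF receptor (-1.62 and -1.59 in low and high IL-3), Csf2rb2, the beta chain of the mouse IL-3 receptor (-1.20 and -1.09), and Fcgr1, the high-affinity IgG receptor (-1.20 and -0.99), while the alpha chain of the IL-3 receptor, Il3ra, rose by 0.74 and 0.53.

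Inside the cell, integrins are linked to the cytoskeleton and to Rap1 signalling by adaptor proteins. Of 24 tested, 9 fell and 1 rose at 4 h in low IL-3, and 8 fell and 0 rose in high IL-3, where 43.6% and 40.6% of all genes fell. Of the 10 integrin subunits, 2 fell and 4 rose in low IL-3, and the difference between these lists was not tested. Crk, an SH2 and SH3 adaptor, fell from 802 and 873, by 2.44 and 2.67, Crkl by 1.72 and 1.53, the focal adhesion kinase homologue Ptk2b by 1.35 and 1.30, and the small GTPase Rap1b by 0.81 and 0.72, all with an adjusted p of 1.2e-05 or lower. Of 7 further tetraspanins tested, Tspan14 fell by 1.20 and 0.88, Tspan13 rose by 0.50 and 0.59, and the remaining 5 did not pass in either condition at 4 h.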

How the data were processed

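The deposited values are model-based intensities on a linear scale, made by the authors with dChip at its default settings from Affymetrix mouse 430A 2.0 arrays, with all 10 arrays normalized as 1 batch. The sources used here name no version of dChip. They are neither ratios nor centred, and the number of arrays limits the precision. Gene names came from the platform annotation and an NCBI RefSeq gene table (GRCm38.p6), in which all 95 genes were found. Tests used limma 3.58.1 in R 4.3.3 (lmFit, eBayes with a trend on signal) on log2(intensity + 16), with 5 groups and the experiment as a block. The labels number the experiments and the study takes its ratios within them; same-experiment arrays deviated together from their group means (correlations of 0.762 to 0.887 between groups). Genes are named by role, level, size of change and p of the IL-3 difference. The genes and lists were chosen with earlier results of these data known. A half-life is ln 2 divided by the fitted slope of the log ratio to 0 h, for each experiment. Alternatives varied the pseudocount, the filter, the scaling, the block, the variance trend, the probe sets and the arrays kept.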

Additional observations from a re-analysis of the deposited data

How the results depend on the processing

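The experiment pairs the arrays, and the fit without this block called few surface genes: at 2 h 0 in either direction in low and high IL-3, at 4 h 2 lower and 2 higher in low IL-3 and 1 lower and 0 higher in high IL-3. Of all genes that fit called 3.59% and 2.08% lower at 2 h, and 21.1% and 17.7% lower and 1.24% and 0.353% higher at 4 h, in low and high IL-3. Scaling to a common 75th percentile gave, after 2 h, 1 lower and 22 higher with low IL-3 (3 and 4 as reported) and 1 lower and 20 higher with high IL-3 (2 and 6). After 4 h it gave 2 lower and 27 higher with low IL-3 (5 and 17) and 1 lower and 27 higher with high IL-3 (4 and 10). Of all genes 34.2%, 27.4%, 45.1% and 46.6% were higher in these 4 comparisons. Quantile normalization gave 17 higher at 2 h in low IL-3, 1 lower and 17 higher at 2 h in high IL-3, 3 lower at 4 h in low IL-3, and 2 lower and 22 higher at 4 h in high IL-3. Of all 6792 genes it called 1492 higher at 2 h in low IL-3, and with high IL-3 1299 and 2510 higher after 2 h and 4 h. At 2 h, scaling to Gapdh, a filter at 200 and no filter on signal each gave 2 higher in low IL-3 and 1 lower in high IL-3, and a fit with no variance trend gave 1 lower in low and 1 lower in high IL-3. The filter at 200, which leaves out Itga5 and Cd244a, gave 3 lower at 4 h in low IL-3. Averaging over all probe sets of a gene made 1 gene, Cd48, higher in high IL-3 (adjusted p = 0.032, over all alternatives 0.032 to 1.00). Cd48 has 1 probe set, so averaging left its own values as they were and changed only the other rows of the fit. Scaling to the 75th percentile or to Gapdh multiplies all values of an array by 1 factor. For the remaining settings the cause was not tested.

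Leaving out 1 array at a time, the genes lower numbered 1 to 3 at 2 h in low IL-3, 1 to 3 at 2 h in high IL-3, 2 to 5 at 4 h in low IL-3 and 2 to 4 at 4 h in high IL-3; the genes higher numbered 0 to 6, 0 to 7, 7 to 17 and 5 to 12. The lowest counts of rises came without the 2 h array of low IL-3, experiment 2 (0), the 2 h array of high IL-3, experiment 1 (0), the 4 h array of low IL-3, experiment 2 (7), and either 4 h array of high IL-3 (5 each). No gene was called for IL-3 (0 to 0), and for the change of that difference 0 to 2 were, Cd37 and Cd99 without the 2 h array of high IL-3, experiment 2. A lone array is there assumed to vary like the other groups. The median log2 change of all genes moved in these fits too. At 4 h in low IL-3 it was -0.28 without that array of experiment 2 and -0.14 without that of experiment 1, against -0.21. The surface genes had 0.23 and 0.37, against 0.30. At 4 h in high IL-3, all genes had -0.23 and the surface genes 0.09 without the 0 h array of experiment 2. Without that of experiment 1 they had -0.12 and 0.28. The swing is thus not shown to be particular to the surface genes.

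With arrays scaled to a common 75th percentile, Cd47 at 4 h came to 0.16 in low and 0.23 in high IL-3, Itga6 to 0.088 and 0.044, and Cd48 in high IL-3 to 0.00092. Averaged over all probe sets of a gene, Itga6 in low IL-3 came to 0.0042 and Cd37 in high IL-3 to -0.029. Of the 37 gene changes given above and tested again under each alternative, 623 repeats kept direction and call, 101 kept the direction and lost the call (31 without the block, 53 without 1 array), 1 gained it and 7 reversed.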
